A study of Homo sapiens with 8 samples.

Results

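The FOS and JUN family encodes the subunits of AP-1, and all 7 of its named members (FOS, FOSB, FOSL1, FOSL2, JUN, JUNB and JUND) were found by symbol among the 13036 genes listed in the deposited RNA-seq table. All 7 also passed the filter on low values. The cells were LN229-TAZ(4SA), a human glioblastoma line whose name gives a form of TAZ, a co-activator of the Hippo pathway, which every group therefore shares. The groups, of 2 libraries each, were AF at 1 µM in medium without glucose for 1 h, regular culture for 1 h, AF at 1 µM without glucose for 7 h, and regular culture for 7 h. AF is given by its abbreviation in the labels, and the series title concerns inhibition of thioredoxin reductase 1. AF and the lack of glucose always came together, so their separate effects cannot be told apart. The labels do not say what was done to the regular cultures at the start of the timed period, whether the line is 1 clone, or whether the libraries of a group came from separate cultures. The p-values therefore measure the spread between libraries of a group, and this spread may be technical.

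AP-1 is a pair of bZIP proteins held together by their leucine zippers. JUN proteins can pair with each other or with FOS proteins, while FOS proteins need a JUN partner. FOS, FOSB, JUN and JUNB are immediate early genes, switched on within minutes by growth factors and stress kinases without new protein synthesis, and FOS mRNA is short-lived. FOSL1 and FOSL2 lack the strong activation domain of FOS and follow later, and JUND is usually the steadier member. In glioblastoma, FOSL1 is known for its link to the mesenchymal state.

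The listed genes held 27731776 to 45811965 reads per library, 1 read was equal to 0.0209 to 0.0430 CPM, and 3 reads stood at 0.0626 to 0.129 CPM. Each member had at least 52 reads in every library. The library size that the deposited CPM values imply was 0.838 and 0.846 times the reads in listed genes in 7 h treated cells and 1.04 to 1.09 times in the other 6 libraries. Scaling by summed reads instead moved the median gene by -0.32 on the log2 scale in the 7 h comparison. Of 8 markers named for the glioblastoma line, 6 were listed, and SOX9 and AQP4 were not. VIM, CD44, NES, S100B and EGFR were present at 58.5 CPM or more in each group mean, and GFAP, a marker of astrocytes, at 0.495 to 1.14 CPM. Of 14 markers of other cell types, 5 were listed, with a summed level of 71.4 to 71.8 CPM in 1 h treated cells, 77.5 to 79.9 CPM in 1 h regular culture, 165 to 171 CPM in 7 h treated cells and 64.4 to 68.1 CPM in 7 h regular culture. Among them the epithelial keratin gene KRT18 averaged 117 CPM in 7 h treated cells, against 50.4 CPM in 7 h regular culture, and the neuronal gene RBFOX3 stood at 26.9 ± 2.49 CPM in 7 h treated cells, against 0.506 ± 0.0957 in 7 h regular culture (SD, n = 2 each), while the neuronal gene SYP stood at 1.16 ± 0.0621 CPM in 7 h treated cells, against 1.03 ± 0.111 in 7 h regular culture. Their part in the results was not tested. In bulk RNA, fewer cells and less RNA per cell cannot be told apart.

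Because the members moved together in part, their RefSeq promoter windows (GRCh38.p14, 250 bases before the start and 50 after it) were searched on both strands for fixed motifs. A window was matched for 6 members, and FOSL1 was not among them. The cAMP response element TGACGTCA (CRE) was in the JUND window, 200 bases before the start, and its variant TGACATCA was in the JUN window, 67 bases before the start. The core TGACGT, which lies inside the CRE and was added to the search after the windows had been read, was in 4 of the 6 windows, those of FOS, FOSB, FOSL2 and JUND. Of all 35116 windows of this length, 1.85% held the CRE, 2.61% the variant and 7.98% the core. These shares were not matched for base content. The bases before the start were 62% (JUN) to 74.8% (JUND) G or C in the 6 windows, against a median of 58% over all windows. The stretches around these matches are shown because the matches stood at similar distances from the start in 4 genes, with the matched letters in capitals.
FOS, chr14:75278752-75278781, plus strand, match 64 bases before the start: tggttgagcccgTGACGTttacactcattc
FOSB, chr19:45467924-45467953, plus strand, match 60 bases before the start: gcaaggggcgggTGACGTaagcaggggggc
FOSL2, chr2:28392780-28392809, plus strand, match 66 bases before the start: ggagtctggggtTGACGTgagtgaatccac
JUN, chr1:58784096-58784125, minus strand, match 67 bases before the start: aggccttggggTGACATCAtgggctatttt
JUND, chr19:18281692-18281721, minus strand, match 87 bases before the start: tgcaaatgagcgACGTCAcccgcacccaat
JUND, chr19:18281804-18281833, minus strand, match 200 bases before the start: ggccgcccccaTGACGTCAacccacaaggc

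No CRE-type match lay in the JUNB window, and its last 120 bases before the start are set beside those of FOSB and JUND, the other members on chromosome 19.
FOSB, chr19:45467876-45467995, plus strand: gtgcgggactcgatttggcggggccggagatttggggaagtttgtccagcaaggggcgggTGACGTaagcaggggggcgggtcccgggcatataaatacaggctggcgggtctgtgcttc
JUNB, chr19:12791366-12791485, plus strand: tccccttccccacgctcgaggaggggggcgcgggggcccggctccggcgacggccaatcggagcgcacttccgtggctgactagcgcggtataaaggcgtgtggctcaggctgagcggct
JUND, chr19:18281623-18281742, minus strand: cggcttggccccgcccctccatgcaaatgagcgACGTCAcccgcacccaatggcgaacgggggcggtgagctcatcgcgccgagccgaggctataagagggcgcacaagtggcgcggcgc
Of the other motifs, the AP-1 site TGACTCA was in the FOSL2 window, after the start, against 4.95% of all windows, and the heat shock pair GAANNTTC was in the JUN window (6.77% of all windows). The antioxidant response element core TGACNNNGC lay in the JUND window (13.3% of all windows), where its copy nearer to the start overlaps the CRE core shown above. The composite site TGATGCAA and the CArG box, searched by name, were in none of the 6 windows (0.866% and 1.29% of all windows). Sites more than 250 bases before the RefSeq start lay outside the search, so their absence from these genes was not tested. GENCODE 29 places the first base of JUN 280 bases, of FOSL2 410 bases and of FOS 54 bases upstream of the RefSeq start, so these distances hold for the RefSeq starts.

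At 1 h the comparison asked for the early response of treated cells. FOS was the member that stood higher, at more than 10 times its level in regular culture. The other 6 members were lower, FOSL2, JUNB and FOSL1 at least 2-fold so. Across all 13028 tested genes, 17.7% were called higher and 20.7% lower at 1 h (limma adjusted p under 0.05), and 1.1% and 2.03% were called with at least a 2-fold change. Other scalings moved this split, to 23.7% and 17.3% with quantile normalization and to 30.2% and 14% after scaling by summed reads, while all 7 members kept their direction. The median log2 fold change of the 7 members was -0.82, against 0.01 for all tested genes.

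FOS, the founding partner of JUN and the classical immediate early gene, had 548 and 472 CPM in 1 h treated cells, against 46.9 and 46.7 CPM in 1 h regular culture. Both treated libraries lay far above both regular ones (log2 fold change 3.44, SE 0.10; limma adjusted p = 3.37e-16). FOS had the 8th largest rise of all tested genes. FOSB, its close relative, went the other way at this time. It had 190.0 and 183 CPM in treated cells, against 357 and 302 CPM in regular culture (log2 fold change -0.82, SE 0.06; limma adjusted p = 3.20e-09).

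Both FOS-related antigens without the strong activation domain were lower in treated cells, with no overlap between groups, a separation that 33.1% of all tested genes had in this direction at 1 h. FOSL1 (FRA-1) had 475 and 470.3 CPM in treated cells, against 1032 and 1053 CPM in regular culture (log2 fold change -1.14, SE 0.03; limma adjusted p = 7.82e-16). FOSL2 (FRA-2) had 86.5 and 80.8 CPM in treated cells, against 408 and 395 CPM in regular culture. Its log2 fold change of -2.26 (SE 0.04; limma adjusted p = 1.29e-18) was the lowest of the family and the 42nd lowest of all tested genes.

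The JUN genes were lower in treated than in regular cells by very different amounts. JUNB, whose protein activates less strongly than JUN at many sites, had 114 and 96.6 CPM in treated cells, against 382 and 370.0 CPM in regular culture (log2 fold change -1.84, SE 0.06; limma adjusted p = 1.41e-15). JUN itself had 729.6 and 602 CPM in treated cells, against 788 and 752 CPM in regular culture (log2 fold change -0.22, SE 0.06; limma adjusted p = 0.00433). Treated and regular libraries did not overlap, but the gap between the treated libraries was wider than that between the group means. The call was lost when treated library B (-0.08; limma adjusted p = 0.162) or regular library A (-0.18; limma adjusted p = 0.0542) was left out, and the value was -0.35 without treated library A. JUND had 94.3 and 80.2 CPM in treated cells, against 120.4 and 101 CPM in regular culture (log2 fold change -0.34, SE 0.07; limma adjusted p = 8.26e-04). Its value was -0.22 without treated library B and -0.21 without regular library A. Without an intensity trend in the variance, JUN (limma adjusted p = 0.121) and JUND (limma adjusted p = 0.0589) were not called. In 1 h treated cells, library A was above library B for all 7 members, by 1.01-fold (FOSL1) to 1.21-fold (JUN), and the part of this offset in the results was not tested.

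**Figure D1:**
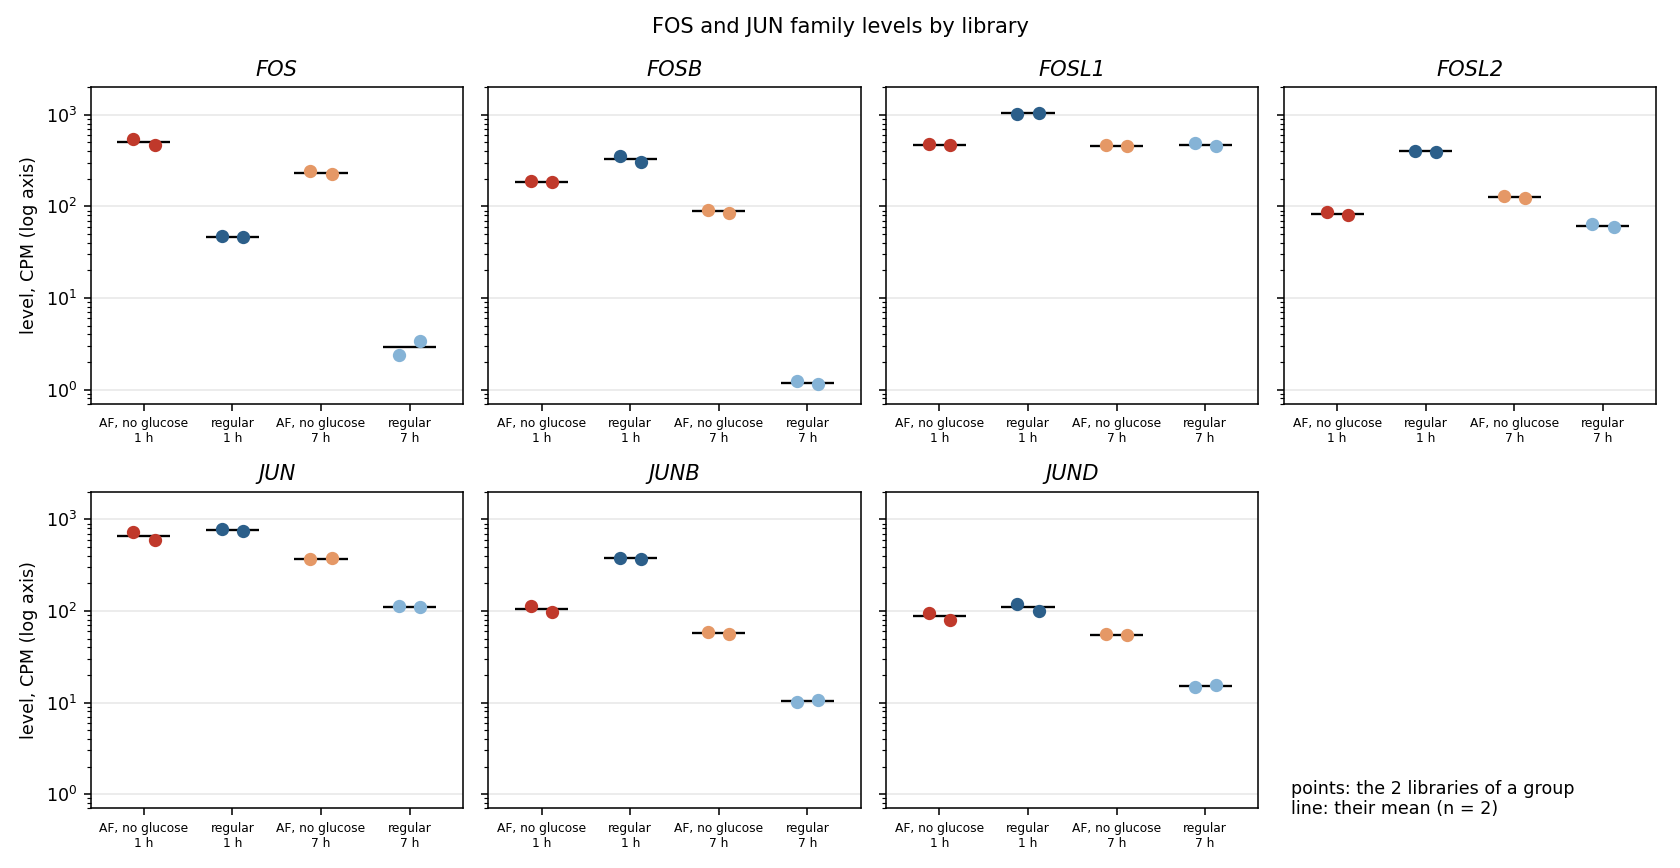
Level of each member in every library, in CPM on a log axis, for AF without glucose at 1 h, 1 h regular culture, AF without glucose at 7 h and 7 h regular culture; points are the 2 libraries of a group and the line is their mean. FOS is the member that stands higher in treated than in regular cells at 1 h. For each member except FOSL1, 7 h regular culture is the lowest group. The 3 lower groups of FOSL1 lie close together in the deposited values.

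At 7 h the comparison asked for the late response. 6 members were higher in treated cells, each by at least 2-fold, and FOSL1 did not pass. The 2 largest differences were those of FOS and FOSB, which were both lower in treated cells at 7 h than at 1 h. Across all tested genes, 40.5% were called higher and 41.1% lower at 7 h, with 10.6% at least 2-fold higher and 11.5% at least 2-fold lower. After scaling by summed reads the split was 24.1% higher and 58.2% lower. The median log2 fold change of the members was 1.85, against -0.01 for all tested genes.

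FOS had 244 and 225 CPM in 7 h treated cells, against 2.40 and 3.38 CPM in 7 h regular culture (log2 fold change 6.33, SE 0.10; limma adjusted p = 3.41e-21). In regular culture its level rested on 115 and 153 reads. FOSB had 92.1 and 84.4 CPM in treated cells, against 1.23 and 1.15 CPM in regular culture (log2 fold change 6.15, SE 0.06; limma adjusted p = 8.28e-24). These were the 9th and 13th highest log2 fold changes of all tested genes, and both genes were nearly silent in regular culture at that time.

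JUN had 373 and 375 CPM in 7 h treated cells, against 113 and 110.2 CPM in regular culture (log2 fold change 1.74, SE 0.06; limma adjusted p = 2.83e-16). JUNB had 59.1 and 56.3 CPM in treated cells, against 10.3 and 10.7 CPM in regular culture (log2 fold change 2.46, SE 0.06; limma adjusted p = 2.11e-18). JUND had 55.7 and 54.3 CPM in treated cells, against 14.8 and 15.6 CPM in regular culture (log2 fold change 1.85, SE 0.07; limma adjusted p = 6.68e-15). All 3 JUN genes stood above both regular libraries in both treated libraries at 7 h, as did 45.2% of all tested genes.

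FOSL2 had 129.99 and 124 CPM in 7 h treated cells, against 64.6 and 59.0 CPM in regular culture (log2 fold change 1.04, SE 0.04; limma adjusted p = 3.14e-14). FOSL1 had 472 and 453 CPM in treated cells, against 488 and 456 CPM in regular culture, and the groups overlapped. Its difference was -0.03 on the log2 scale, with a 95% interval of -0.10 to 0.04 (limma adjusted p = 0.412). This depended on the scaling, since FOSL1 was called lower under quantile normalization (-0.27) and after scaling by summed reads (-0.35). The median gene stood at -0.02 under quantile normalization and at -0.32 after scaling by summed reads.

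**Figure D2:**
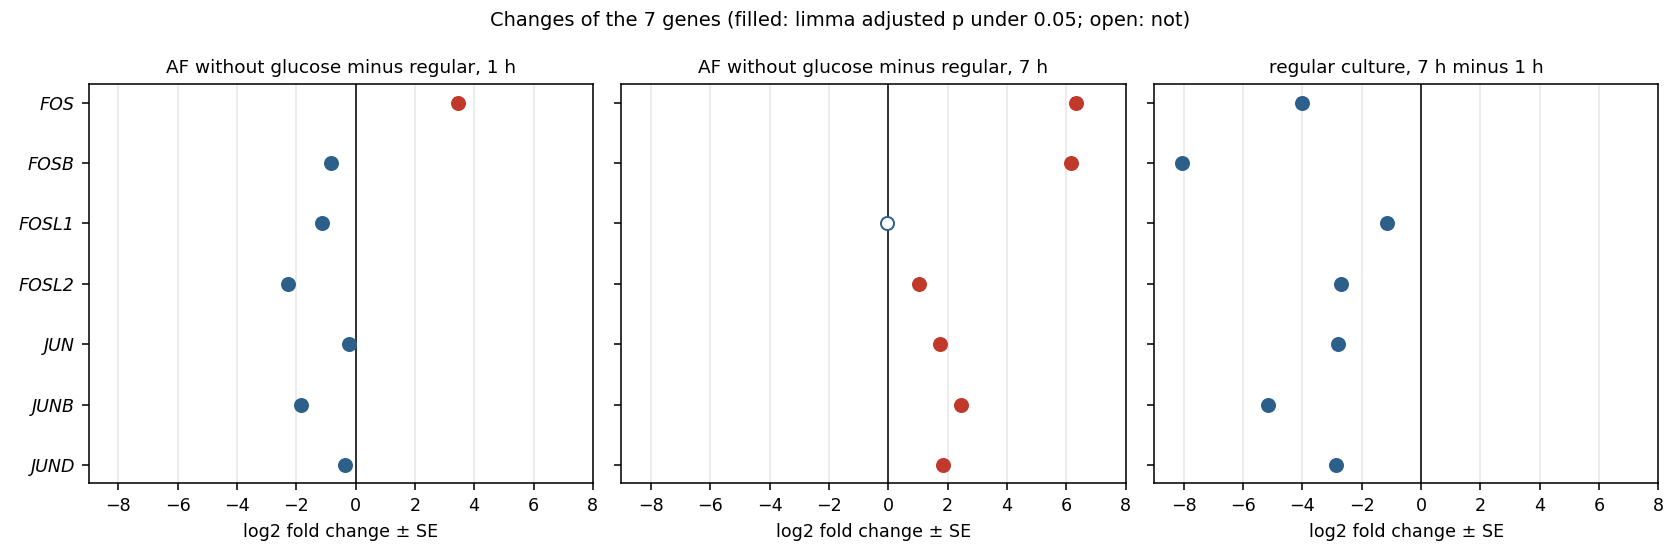
Log2 fold change with its SE for each member in treated minus regular cells at 1 h and at 7 h, and in 7 h regular culture minus 1 h; filled points passed a limma adjusted p of 0.05, and most SE bars are shorter than the points. FOS is the member right of 0 at 1 h, 6 members are right of 0 at 7 h, and all 7 are left of 0 in regular culture over time.

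The effect of treatment differed between the times for every member. The difference of the effects, 7 h minus 1 h, was positive for all 7, from 1.11 for FOSL1 to 6.97 for FOSB on the log2 scale, and each passed (the largest limma adjusted p was that of FOS, 3.60e-13). Across all tested genes, 36.7% passed in this direction (19.3% after scaling by summed reads). For FOSB, FOSL2, JUN, JUNB and JUND the sign itself turned, with treated cells above regular culture at 7 h and below it at 1 h. Of all tested genes, 7.08% passed both ways like this. The 1 h calls of JUN and JUND were lost without an intensity trend, and that of JUN also without either of 2 libraries, as given above.

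The regular cultures, which serve both treatment comparisons, changed strongly over time themselves. All 7 members fell at least 2-fold there between the times. Of all tested genes, 30.8% were called lower and 4.7% at least 2-fold lower. FOSB, at 1.19 ± 0.0595 CPM at 7 h and 329 ± 38.7 CPM at 1 h (SD, n = 2 each), had a log2 fold change of -8.05 (SE 0.06; limma adjusted p = 5.15e-25) and ranked lowest of all 13028 tested genes. JUNB followed with -5.16, at 10.5 ± 0.274 CPM at 7 h and 376 ± 8.57 CPM at 1 h, the 7th lowest. FOS fell by 4.01, JUND by 2.86, JUN by 2.78, FOSL2 by 2.70 and FOSL1 by 1.14 on the log2 scale.

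In treated cells the members changed less over the same hours, by the size of their log2 fold changes. The test of the effects above compares the signed changes and not their size. For FOSL2 these changes went in opposite directions. At 7 h compared with 1 h, FOS (-1.12), FOSB (-1.08), JUNB (-0.86), JUN (-0.82) and JUND (-0.66) were lower on the log2 scale, and 40.7% of all tested genes were called lower (65.7% after scaling by summed reads). FOSL2 was higher (0.60; limma adjusted p = 2.17e-10), as were 36.9% of all tested genes (17.3% after scaling by summed reads). FOSL1 differed by -0.03, with a 95% interval of -0.10 to 0.04, and it was called lower under quantile normalization (-0.34) and after scaling by summed reads (-0.40). These comparisons share libraries with those above.

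The order of the groups was not the same for each member. FOSB, JUN, JUNB and JUND were highest in 1 h regular culture, followed by 1 h treated cells, 7 h treated cells and 7 h regular culture. FOS was highest in 1 h treated cells, followed by 7 h treated cells, 1 h regular culture and 7 h regular culture. Its level in 7 h treated cells was 2.32 log2 units above that in 1 h regular culture (SE 0.10; limma adjusted p = 2.84e-14). FOSL2 was highest in 1 h regular culture, followed by 7 h treated cells, 1 h treated cells and 7 h regular culture, with the last pair 0.44 apart (SE 0.04; limma adjusted p = 6.49e-08). For these 6 members each neighbouring pair of groups passed the test, as 77.8% of all tested genes did between 7 h treated cells and 1 h regular culture and 64% between 1 h treated cells and 7 h regular culture, with the exceptions named for JUN and JUND at 1 h. For FOSL1, 1 h regular culture stood alone at 1042 ± 15.1 CPM. The other 3 groups did not differ beyond their spread on the deposited scaling. They stood at 473 ± 3.39 in 1 h treated cells, 462 ± 13.4 in 7 h treated cells and 472 ± 22.8 CPM in 7 h regular culture. Under the other scalings, 7 h treated cells were called lower than 1 h treated cells and 7 h regular culture, as given above.

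Levels can be set side by side between genes once they are divided by exon length, from 1.82 kb for JUNB to 6.79 kb for FOSL2 in GENCODE 29. On this scale of CPM per kb, FOSL1 was the most abundant member in all 4 groups and JUN ranked second in each by its mean. In 1 h treated cells JUN (188 ± 25.5) and FOS (174 ± 18.2) did not differ beyond their spread. The lengths join all annotated exons of a gene, and the order with other lengths was not tested. The sum over the family was 769 ± 59.1 in 1 h treated cells, against 1184 ± 19.4 in 1 h regular culture, and 532 ± 14.6 in 7 h treated cells, against 312 ± 12.9 CPM per kb in 7 h regular culture (SD, n = 2 each). FOS made up a mean of 22.5% of the family in 1 h treated cells, against 1.35% in 1 h regular culture, and 14.97% in 7 h treated cells, against 0.317% in 7 h regular culture. FOSL1 made up 33.5% in 1 h treated cells, against 47.8% in 1 h regular culture, and 47.2% in 7 h treated cells, against 82.1% in 7 h regular culture. JUNB held 7.50% in 1 h treated cells and 17.4% in 1 h regular culture. The 3 JUN genes together held 31.4% ± 0.634 in 7 h treated cells, against 14.6% ± 0.554 in 7 h regular culture, and 37.98% ± 1.96 in 1 h treated cells, against 40.8% ± 0.960 in 1 h regular culture (SD, n = 2 each). These are shares of mRNA and not of protein.

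**Figure D3:**
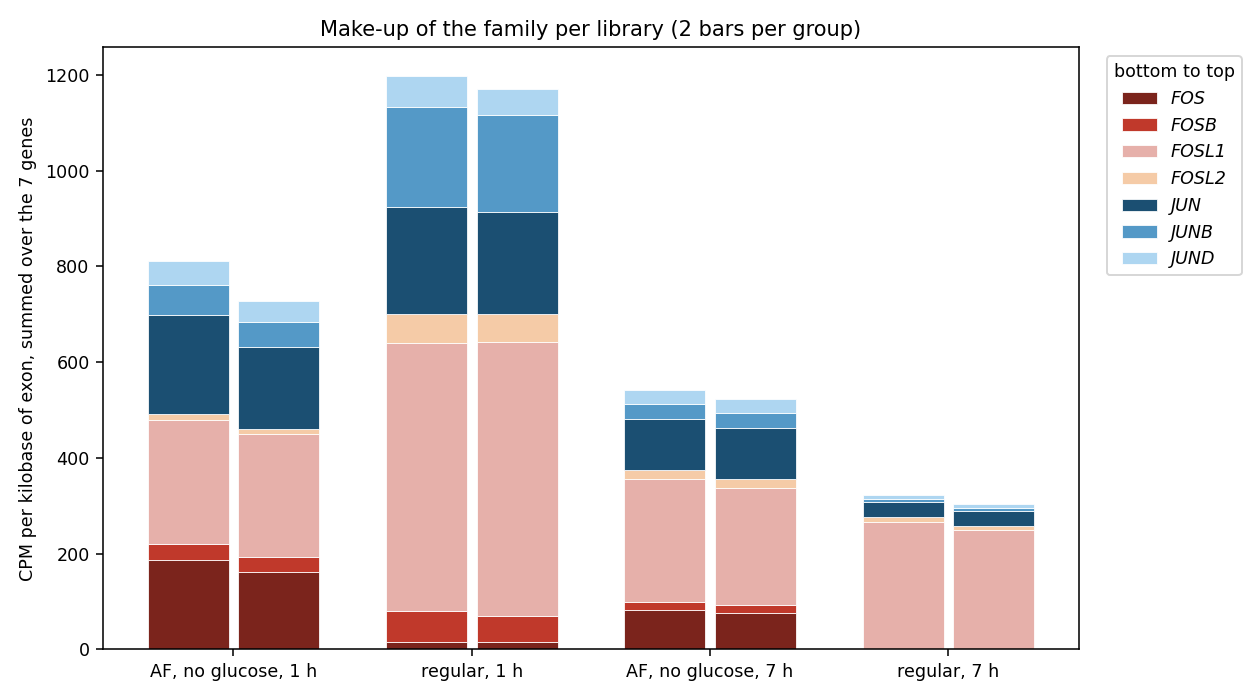
CPM per kilobase of exon of the 7 members, stacked, with 1 bar for each of the 2 libraries of a group; FOS genes are in red and orange at the bottom and JUN genes in blue at the top. FOSL1 is the widest band in all 8 libraries, and the FOS band is wide in treated cells and thin in regular culture.

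Within the family, JUN and JUND had nearly the same pattern over the 4 groups. With each gene centred on the mean of its group means, the distance between them was 0.128 log2 units, against 1.19 to 5.91 for the other 20 pairs of members. JUN and JUND lie on chromosomes 1 and 19 (at 58780788 to 58784327 and 18279760 to 18281622 in GRCh38), and each has 1 exon. JUNB, with 1 exon at 12791496 to 12793315 on chromosome 19, lay at 1.74 from JUN and 1.70 from JUND. FOS (chromosome 14, 75278774 to 75282230), FOSB (chromosome 19, 45467995 to 45475179), FOSL1 (chromosome 11, 65892049 to 65900573) and FOSL2 (chromosome 2, 28392448 to 28417312) have introns. No exon of a member overlapped an exon of another gene in the basic annotation, which matters because the libraries do not mark strand.

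Outside the family, the genes with the most similar group means differed from member to member, among 10863 genes compared over the 4 groups. Nearest to FOS were CHAC1, which degrades glutathione (distance 1.66), and GDF15, a stress cytokine (2.49). CHAC1 averaged 134 ± 1.21 CPM in 1 h treated cells, against 13.7 ± 0.886 in 1 h regular culture, and 66.3 ± 1.44 CPM in 7 h treated cells, against 2.99 ± 0.0191 in 7 h regular culture. Like FOS, it was higher in treated cells at both times. Nearest to FOSB were the nuclear receptors NR4A3 (1.41) and NR4A1 (1.93), and nearest to JUNB the zinc finger factors EGR3 (0.892) and EGR4 (1.25). All of them are immediate early genes that were highest in 1 h regular culture. EGR4 had only 2 and 3 reads in 7 h regular culture (mean 0.0540 CPM) and 9 and 17 in 7 h treated cells. Its distance therefore depends on the prior of 0.0522 CPM. JUN and JUND both had BHLHE40, a repressor of the bHLH family, as nearest gene (0.301 and 0.205), followed by PLEKHS1 for JUN (0.421) and the clock gene PER1 for JUND (0.355). FOSL1 was nearest to BCAR1, an adhesion adaptor (0.151), and TICAM1, an adaptor of Toll-like receptors (0.160). FOSL2 was nearest to the kinase gene SGK1 (0.285) and ARID5B, a DNA-binding cofactor (0.310).

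**Figure D4:**
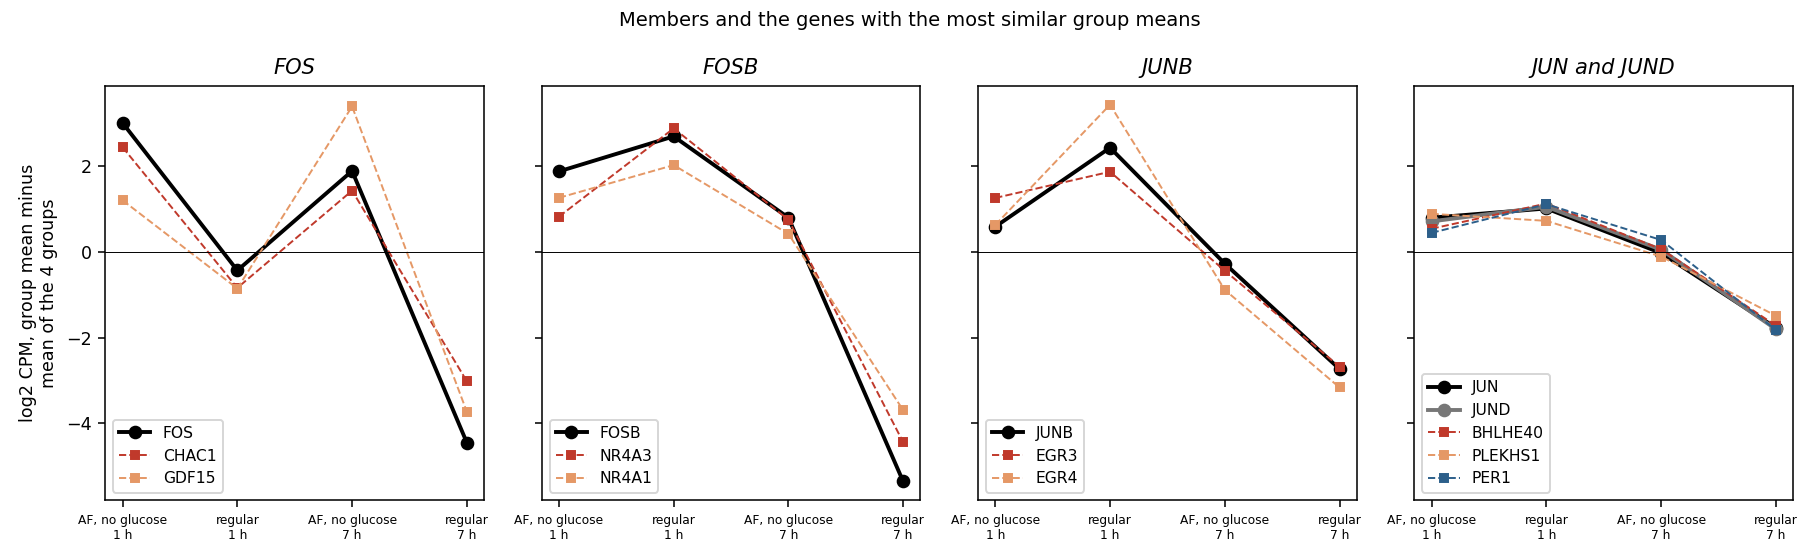
Group means of log2 CPM, each gene centred on the mean of its 4 group means, for FOS, FOSB, JUNB, and JUN with JUND, beside the 2 genes nearest to each (dashed). JUN and JUND lie almost on top of each other, and CHAC1 shares with FOS a peak in treated cells at both times.

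The genes around AP-1 were described by 7 lists, some of whose genes stand in more than 1 list. Their counts stand against shares of all tested genes of 17.7% higher and 20.7% lower at 1 h, and 40.5% higher and 41.1% lower at 7 h. Among 10 tested bZIP partners outside the family, 4 were higher (40%) and 3 lower (30%) in 1 h treated cells (median 0.04), and 6 were higher (60%) and 1 lower (10%) at 7 h (median 1.15). ATF3, a stress-induced partner of JUN, stood at 307 ± 8.55 CPM in 7 h treated cells, against 6.34 ± 0.143 in regular culture (log2 fold change 5.59). At 1 h ATF3 averaged 202 ± 9.66 CPM in treated cells, against 211 ± 9.57 in regular culture, and did not pass (limma adjusted p = 0.307). MAFF, a small MAF protein, was 0.70 lower at 1 h and 3.23 higher at 7 h, and JDP2, a repressor that binds AP-1 sites, was higher at both times (0.45 and 1.92). MAFK (-1.43) and CREB5 (-1.18), which pairs with JUN, were lower at 1 h. Their 7 h means were higher in treated cells, at 114 against 35.4 CPM in regular culture for MAFK and 50.7 against 25.3 CPM for CREB5. MAF (0.31) and ATF7 (0.26) were higher at 1 h, and ATF7 was lower at 7 h (-0.35).

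Genes of the MAP kinase cascades that phosphorylate AP-1 or switch it on changed in both directions. Of 32 tested, 5 were higher (15.6%) and 12 lower (37.5%) at 1 h (median -0.05), and 12 were higher (37.5%) and 17 lower (53.1%) at 7 h (median -0.26), against medians of 0.01 and -0.01 over all tested genes. MAP2K3, which activates p38 kinases, had 92.7 and 96.6 CPM in treated cells, against 248 and 247 CPM in 1 h regular culture (log2 fold change -1.39). At 7 h it had 200.2 and 189.6 CPM in treated cells, against 65.0 and 64.0 CPM in regular culture (1.59). MAP2K3 thus turned in sign as most AP-1 members did. MAP3K1, upstream of JNK, was higher at 1 h (0.73), as were MAP2K6 (0.29) and MAP2K5 (0.22), and RPS6KA3 (-0.74) and MAPKAPK2 (-0.59) were lower. In 7 h treated cells MAPKAPK2 averaged 297 CPM, against 135 in regular culture, and RPS6KA3 133 CPM, against 119. At 7 h MAP2K6 (1.30) and RPS6KA2 (1.28) were higher, and MAPK14, which encodes p38 alpha (-1.65), MAPK7 (-1.16) and MAP3K6 (-0.84) were lower. The 1 h calls of MAP2K6 and MAP2K5 were each lost without treated library B (0.22 and 0.11), or without either regular library at 1 h (0.24 to 0.34 for MAP2K6, 0.21 to 0.22 for MAP2K5). That of MAP2K6 was also lost under quantile normalization (limma adjusted p = 0.0789), and that of MAP2K5 without an intensity trend (limma adjusted p = 0.0880). Of the list, 3 were higher and 7 lower at 1 h without treated library B, and 3 and 2 were higher without regular library A and B.

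Transcription factors known to act on FOS and JUN promoters changed in both directions. At 1 h 2 of 14 were higher (14.3%) and 7 lower (50%), and at 7 h 6 were higher (42.9%) and 8 lower (57.1%), with medians of -0.13 and -0.39. SRF, the factor of the serum response element, stood at 43.6 ± 1.23 CPM in 1 h treated cells, against 214 ± 4.46 in regular culture (log2 fold change -2.30). MEF2C (-0.66) and STAT3 (-0.58) were also lower at 1 h, while MRTFB (0.27) and SP1 (0.10) were higher. The SP1 call, and with it the count of 2, was lost without either treated 1 h library (0.11 and 0.08), regular 1 h library A (0.07) or either regular 7 h library (0.10), and without an intensity trend (limma adjusted p = 0.113). At 7 h the SRF co-activators MRTFB (-2.18) and MRTFA (-1.31) and the factor SP1 (-1.14) were lower, and CREM (1.67), MEF2D (1.44) and MEF2A (0.69) were higher.

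Factors that act after transcription were split. Of 15 genes of the decay of AU-rich mRNA, 3 were higher and 3 lower at 1 h (20% each), and 5 were higher (33.3%) and 6 lower (40%) at 7 h (medians -0.03 and 0.05). ZFP36, which encodes tristetraprolin, averaged 51.4 ± 1.29 CPM in 1 h treated cells, against 35.4 ± 2.10 in regular culture (log2 fold change 0.54), and 32.6 ± 1.84 CPM in 7 h treated cells, against 4.05 ± 0.448 in regular culture (2.998). Its relative ZFP36L1 was higher at both times (0.78 and 1.85), and ZFP36L2 was lower at both (-1.25 and -0.80). XRN1 (0.17) was higher and TNRC6A (-0.31) and HNRNPD (-0.12) lower at 1 h, and CNOT6 (-0.94) and TNRC6A (-0.92) were lower at 7 h. PARN was called higher at 7 h (3.17, SE 0.85), but not without an intensity trend (limma adjusted p = 0.0742). Its 7 h levels were 2.80 and 1.15 CPM in treated and 0.209 and 0.110 CPM in regular libraries. At 1 h the libraries of a group differed widely, at 0.0685 and 1.74 CPM in treated and 0.304 and 1.75 CPM in regular cells. Of 14 genes of the turnover and modification of the JUN and FOS proteins, 2 were higher (14.3%) and 4 lower (28.6%) at 1 h, and 8 were higher (57.1%) and 5 lower (35.7%) at 7 h (medians -0.03 and 0.15). TRIB1, a scaffold of the COP1 ubiquitin ligase, was lower at 1 h (-0.40) and higher at 7 h (2.75). At 7 h FBXW7, a ubiquitin ligase subunit for JUN (0.82), was higher, and KDM1A (-0.75), TRIB2 (-0.60) and DET1 (-0.53) lower. At 1 h DET1 (0.42) and RNF187 (0.13) were higher, and ITCH (-0.13) was lower. Of these small 1 h changes, those of HNRNPD and ITCH were not called under quantile normalization or after scaling by summed reads. Without an intensity trend XRN1 (limma adjusted p = 0.0624), HNRNPD (limma adjusted p = 0.0647) and RNF187 (limma adjusted p = 0.0591) were not called. Leaving out treated library A ended the calls of XRN1 (0.17) and ITCH (-0.11), and leaving out treated library B those of XRN1 (0.17) and RNF187 (0.10). Without regular library A the call of XRN1 was lost (0.15), and without regular library B that of HNRNPD (-0.09).

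Most genes widely described as AP-1 targets were lower in treated cells at 1 h. FOS was higher at that time, and the other 6 members of the family were lower. Of 33 tested, 3 were higher (9.09%) and 24 lower (72.7%) at 1 h (median -0.29), and 17 were higher (51.5%) and 13 lower (39.4%) at 7 h (median 0.11). The chemokine CXCL8 (-5.64), the growth factor HBEGF (-3.19) and the cytokine LIF (-3.10) had the lowest values of the list at 1 h. In 7 h treated cells CXCL8 averaged 53.9 CPM, against 13.6 in regular culture, and LIF 332 CPM, against 478. BCL2L11, which encodes the death protein BIM (1.00), the phosphatase gene DUSP1 (0.97) and VEGFA (0.57) were higher at 1 h. HBEGF had 9.998 and 11.03 CPM in 1 h treated cells, against 96.9 and 95.9 CPM in regular culture. At 7 h it had 46.4 and 47.5 CPM in treated cells, against 7.22 and 7.15 CPM in regular culture (log2 fold change 2.70). DUSP1, which inactivates MAP kinases, averaged 118 ± 2.97 CPM in 7 h treated cells, against 3.83 ± 0.0773 in regular culture (4.93), and MMP10, a secreted protease, 12.5 ± 0.765 CPM, against 0.860 ± 0.0944 (3.79). ITGA2 (-2.05), CCND1, which encodes cyclin D1 (-1.49), and EZR (-1.04) were lower at 7 h. Many of these genes have other regulators as well.

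Other immediate early genes were mostly lower at 1 h and higher at 7 h. Of 28 tested, 8 were higher (28.6%) and 18 lower (64.3%) at 1 h (median -0.61), and 23 were higher (82.1%) and 3 lower (10.7%) at 7 h (median 2.21). Over time in regular culture 27 of the 28 fell (96.4%), each at least 2-fold, against 4.7% of all tested genes. EGR1 (1.49), IER5 (1.36) and DUSP1 had the highest values at 1 h, and CCN2 (-4.49), CCN1 (-3.13) and ARC (-2.97) the lowest. At 7 h ATF3, IER5 (5.49) and ARC (5.28) had the highest values, and PLK2 (-1.57), CCN2 (-1.20) and CCN1 (-0.17) were lower.

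**Figure D5:**
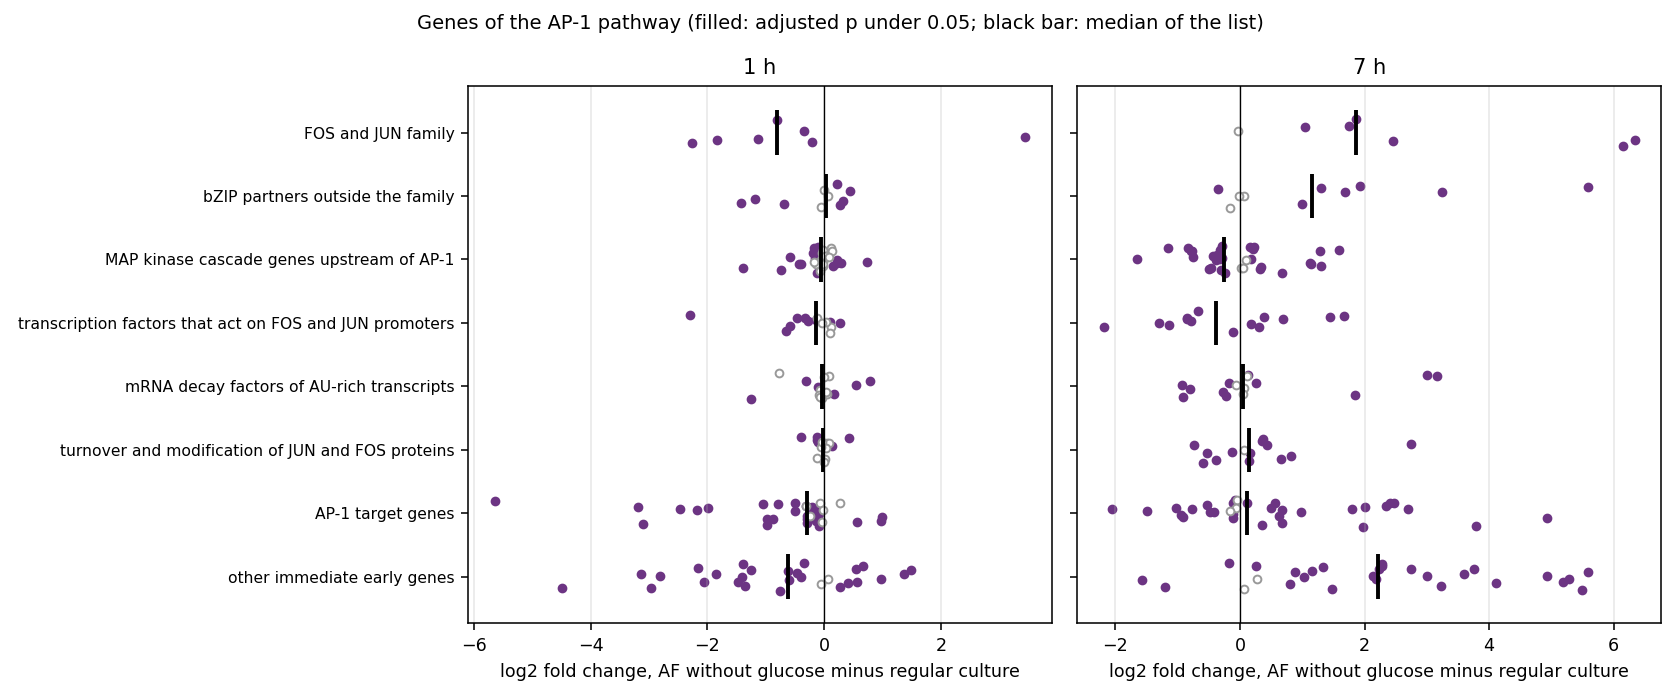
Log2 fold change, treated minus regular culture, at 1 h and 7 h for the family and the genes of each list; filled points passed a limma adjusted p of 0.05, open points did not, and the black bar is the list's median. The family median lies at -0.82 at 1 h and 1.85 at 7 h, with FOS far to the right of the other members at 1 h.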

How the data were processed

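RNA was sequenced in 8 libraries of 4 groups (SMART-Seq mRNA HT and Nextera XT kits, per the labels' protocols). The authors deposited log2 CPM values with a small prior, 1 column per library; HISAT2, edgeR and GRCh38 are named in the submitters' processing notes, and their versions, the counting tool and the filter are not given. The headings give a group but no replicate number, and libraries are called A and B without order. A prior of 0.0522 CPM was read from the lowest values, and 100% of values under 1000 CPM then lay within 0.1 read of a whole number. Levels are CPM with the prior removed. Fold changes are on the log2 scale with the prior, which understates changes of low genes.

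After a filter of 1 CPM in 2 libraries, 13028 genes entered limma 3.58.1 (R 4.3.3) with a mean for each group and an intensity trend, and p-values were adjusted by Benjamini-Hochberg over all genes, with a threshold of 0.05. 5 comparisons were fixed; 2 more, across treatment and time, were added after seeing the data, to order the groups. The procedure was also run on simulated reads in which few genes changed. How it fares with as many changes as in these data was not tested. The members, lists and motifs were chosen with earlier results of these data known. Named list genes are up to 3 per direction and time among those that passed with groups that do not overlap, except that values of 1 such gene are not reported here; the 2 nearest genes per member were taken among genes reaching 5 CPM in a group, leaving out pseudogenes, LOC names and genes without a symbol. Alternatives were other scalings, a pseudocount of 0.5 CPM, no filter, no trend, voom weights and leaving out each library. List genes were matched by gene identifier through a RefSeq table.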

Additional observations from a re-analysis of the deposited data

Results flagged for a closer look

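The effect of treatment differed between 7 h and 1 h for every member by the test of the difference itself, in limma over 8 libraries. On the log2 scale the difference, 7 h minus 1 h, was 2.89 for FOS, 6.97 for FOSB, 1.11 for FOSL1, 3.30 for FOSL2, 1.96 for JUN, 4.30 for JUNB and 2.20 for JUND. Of these, FOS was higher in treated cells at both times, FOSL1 was lower at 1 h and did not pass at 7 h, and the other 5 were lower at 1 h and higher at 7 h, as were 7.08% of all tested genes. The 1 h calls of JUN and JUND were lost without an intensity trend, and that of JUN also without treated library B or without regular library A. The regular cultures were lower at 7 h than at 1 h for all 7 members, and this change enters the difference by its construction. With 2 libraries a group, no library could be tested as an outlier.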

How the results depend on the processing

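Of 490 recomputed member values (7 members, 5 comparisons, 14 alternatives), 481 kept their direction and their side of the threshold. The 9 others were JUN and JUND at 1 h, as given above, and FOSL1 at 7 h and over time in treated cells. Many of these values could not change direction. The log2 fold change stays the same without the filter, without the trend, or when a library outside the comparison is left out. The count of members lower at 7 h was 0 and became 1 (FOSL1) under quantile normalization and 1 after scaling by summed reads; the cause was not tested. With each library left out in turn, FOSL1 at 7 h ranged from -0.0798 to 0.0189 (without regular 7 h library A). List counts depended on the scaling: after scaling by summed reads, bZIP partners lower at 7 h numbered 4, MAP kinase genes lower at 1 h 5 and higher at 7 h 6, promoter factors higher at 7 h 3, decay factors 3 higher and 11 lower at 7 h and 5 higher at 1 h (6 under quantile normalization), and turnover genes 4 higher and 8 lower at 7 h and 4 higher and 1 lower at 1 h (6 and 1 under quantile normalization). Turnover genes at 1 h numbered 1 higher and 2 lower without treated 1 h library B or without the trend, and 2 lower without treated 1 h library A or regular 1 h library B. No paired analysis was possible because the columns carry no replicate numbers. The planned count tests in edgeR and DESeq2 were not run; the reads recovered from the deposited log2 values were used for voom weights. The AP-1 site was in 1 whole window and in 0 of the parts before the start.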
